A study of Mus musculus with 6 samples.

Results

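The miR-29 and miR-30 families were described here by 10 mature microRNAs (miRNAs) of the 620 rows of a small RNA count table. They were chosen by name: the 3p strands of miR-29a, miR-29b and miR-29c, the 5p strands of miR-30a to miR-30e, and the 3p strands of miR-30a and miR-30e. All 10 had a row. The table holds RNA of extracellular vesicles from PBMCs of mice (peripheral blood mononuclear cells, a fraction of lymphocytes and monocytes). All 6 libraries are labelled wild type. The control group is 3 libraries from vesicles labelled untreated, and the IS group is 3 libraries from vesicles labelled IS-stimulated. The labels do not spell out IS, and no dose, duration, age or strain is given in the sources used here. Nor do they tell whether a replicate is its own animal, culture or a repeat of 1 preparation, so the tests below measure spread between libraries that may be technical.

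A miRNA guides an Argonaute protein to messenger RNAs mainly through its seed (bases 2 to 8 from the 5′ end). The miR-29 family is known for repressing collagens and other extracellular matrix genes, and its level falls in fibrotic heart, kidney and liver. The miR-30 family is abundant in heart and kidney and is known for repressing connective tissue growth factor, and miR-30a for repressing the autophagy gene Beclin 1. Each hairpin precursor yields a 5p and a 3p strand, of which usually one is kept and the other degraded.

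RefSeq mature sequences (GRCm38.p6) were matched by name for 8 of the 10 members, miR-30b-5p and miR-30d-5p being the others. They are shown because the families are defined by their seeds and because paralogues that differ by 1 base must be told apart by the counting. Each is written 5′ to 3′ with the seed in capitals.

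miR-29a-3p: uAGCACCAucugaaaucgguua

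miR-29b-3p: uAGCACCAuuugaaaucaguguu

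miR-29c-3p: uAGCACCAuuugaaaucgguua

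miR-30a-5p: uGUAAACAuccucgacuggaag

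miR-30c-5p: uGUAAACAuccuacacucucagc

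miR-30e-5p: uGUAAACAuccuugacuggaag

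miR-30a-3p: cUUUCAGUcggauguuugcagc

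miR-30e-3p: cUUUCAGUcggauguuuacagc

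These strands fell into 3 seed groups. The miR-29 seed AGCACCA occurred in 3 of the 1679 mature sequences of the RefSeq table (0.179%), all of them members. The miR-30 5p seed GUAAACA occurred in 4 (0.238%), with miR-384-5p, which has no row in the count table, as the one that is not a member. That count leaves out miR-30b-5p and miR-30d-5p, for which no sequence was matched. The seed of the 3p strands, UUUCAGU, occurred in 2 (0.119%). With positions counted from 1 at the 5′ end, miR-29a-3p and miR-29c-3p differ by C10U alone, miR-30a-5p and miR-30e-5p by C13U alone, and miR-30a-3p and miR-30e-3p by G18A alone. The number of mismatches allowed in the authors' mapping is not given in the sources used here, so some reads of these pairs may have been counted under the other name.

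The hairpins lie in neighbouring pairs (GRCm38, GENCODE M21). Mir29a (chromosome 6, 31062660 to 31062747, minus strand) is 275 bases from Mir29b-1, and Mir29b-2 (chromosome 1, 195037040 to 195037120, plus strand) is 426 bases from Mir29c. The last pair lies in exons of the non-coding gene A330023F24Rik and opposite exons of Cd46. Mir30e (chromosome 4, 120772606 to 120772697, minus strand) and Mir30c-1, 2983 bases away, lie in introns of Nfyc, a subunit gene of the transcription factor NF-Y. Mir30a (chromosome 1, 23272269 to 23272339, plus strand) is in no other annotated gene, and Mir30c-2, 19361 bases away, lies in an exon of the long non-coding RNA Gm27028. Mir30b and Mir30d are 3697 bases apart on chromosome 15, each in an exon of a non-coding gene. Mature miR-29b-3p and miR-30c-5p each come from 2 hairpins with the same strand, which counts cannot separate.

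Library totals ran from 125731 to 435468 counts, so that 1 count was worth 2.30 to 7.95 counts per 1000000 counts of its library (CPM). No 2 libraries held identical values. Each marker list below was detected in full unless said otherwise. Markers of lymphocytes (5 miRNAs) summed to 717 to 2680 CPM and those of myeloid cells (3) to 5484 to 25034 CPM, against 93435 to 223132 CPM for red cell markers (4) and 24325 to 113012 CPM for liver markers (2), with the groups overlapping in each. Heart and skeletal muscle markers (4 of 5, miR-208a-3p having no row) summed to 363 to 4799 CPM and those of fibroblasts and smooth muscle (5) to 7245 to 12217 CPM. In bulk vesicle RNA, fewer vesicles of a source and less of a miRNA per vesicle cannot be told apart.

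The 5 miR-30 5p strands together were the larger group. Their summed level was 7679, 14156 and 10219 CPM in the control libraries and 6890, 9356 and 10037 CPM in the IS libraries (replicates 1 to 3 in order, here and below), or 0.689 to 1.42% of all counts. The 3 miR-29 strands summed to 351, 833 and 1630 CPM in the control libraries and to 281, 1680 and 795 CPM in the IS libraries. The groups overlapped in both sums, and miR-30 counts outnumbered miR-29 counts 5.57 to 24.5 times within a library. As sums over members these values carry no test.

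**Figure D1:**
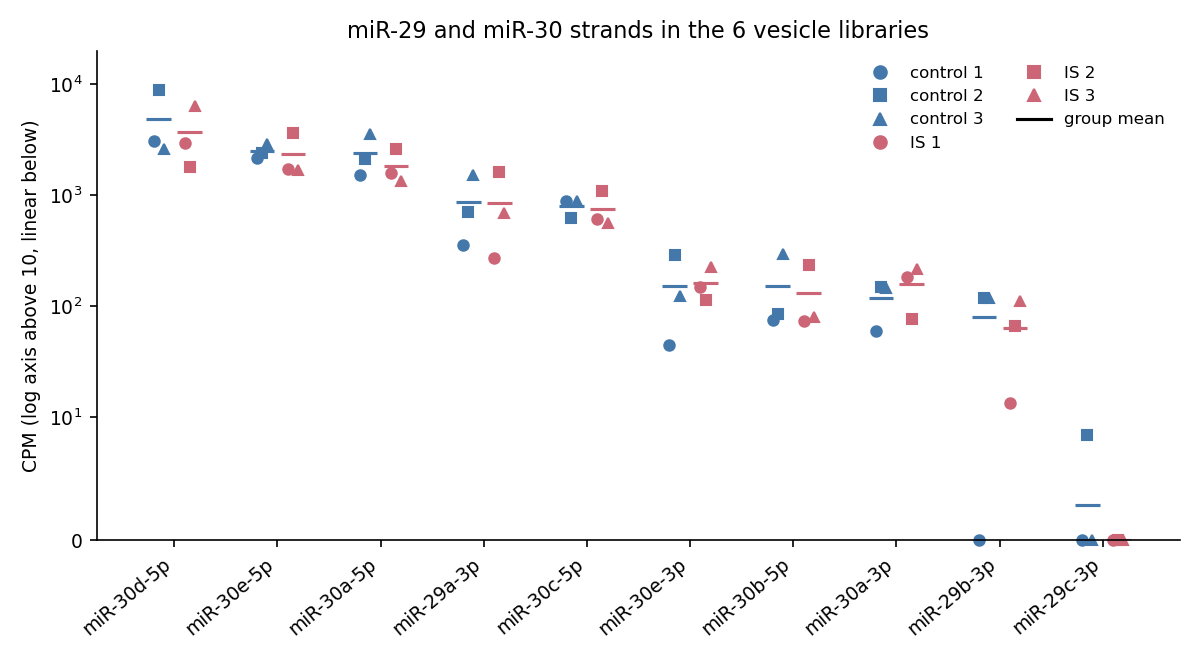
CPM of the 10 members (log axis above 10 CPM, linear below) in 3 control libraries (blue) and 3 IS libraries (red), with replicate number by symbol and a bar at each group mean. miR-30d-5p is highest on average at 4280 CPM over 6 libraries, miR-29c-3p lies at 0 in 5 of 6, and the 2 groups overlap for every member.

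Between members, order by the mean over 6 libraries ran from miR-30d-5p (4280 CPM) through miR-30e-5p (2409), miR-30a-5p (2124), miR-29a-3p (856), miR-30c-5p (770), miR-30e-3p (156 CPM), miR-30b-5p (140.0), miR-30a-3p (137) and miR-29b-3p (71.2) to miR-29c-3p (1.42 CPM). The strands shown above are 22 or 23 bases long and each read stands for 1 strand, so no correction for length was needed. Adapter ligation favours some ends over others, so these are levels of reads and not of molecules. Some neighbours in that order kept it in 6 of 6 libraries: miR-30a-5p above miR-29a-3p, miR-30c-5p above miR-30e-3p, and miR-30a-3p above miR-29b-3p. Others did not: miR-30d-5p exceeded miR-30e-5p in 4 of 6, miR-30e-5p exceeded miR-30a-5p in 5 of 6, and miR-29a-3p exceeded miR-30c-5p in 4 of 6. miR-30e-3p exceeded miR-30b-5p, and miR-30b-5p exceeded miR-30a-3p, in 3 of 6 each, and miR-29b-3p exceeded miR-29c-3p in 5 of 6.

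Within miR-29, nearly all counts were of miR-29a-3p, the strand made next to Mir29b-1. It had 351, 706 and 1513 CPM in the control libraries (95, 166 and 659 counts) and 268, 1613 and 684 CPM in the IS libraries (40, 512 and 86 counts). Control 3 and IS 2 were high and control 1 and IS 1 low, so each group spanned nearly the whole range. The control mean was 857 ± 596 CPM and the IS mean 855 ± 689 CPM (SD, n = 3 per group). The spread within a group was 69.5 and 80.6% of the mean, beside a counting error of 15.8% for the smallest count, which covers the sampling of reads only and no other technical spread.

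The paralogue miR-29b-3p, whose 3′ end is known to direct it to the nucleus, was sparse. It had 0, 119 and 117 CPM in the control libraries and 13.4, 66.2 and 111 CPM in the IS libraries, from 0, 28, 51, 2, 21 and 14 counts. The count of 0 in control 1 allows up to 11.1 CPM (3 counts), and the 2 counts of IS 1 lie under the same limit of 20.1 CPM. Control 1 and IS 1 were thus lowest for miR-29b-3p as they were for miR-29a-3p. Where both were counted, miR-29a-3p outnumbered miR-29b-3p 5.93 to 24.4 times.

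For miR-29c-3p there were 2 counts in control 2 (8.50 CPM) and 0 in the other libraries, which allows up to 6.89 CPM in the deepest of them, control 3, and 23.9 CPM in the shallowest, IS 3. Over all libraries this is 2 counts beside 1558 of miR-29a-3p, from which it differs by C10U, and it was too low to test. The 5p strand of the same hairpin, miR-29c-5p, had more counts than the 3p strand: 16, 0 and 5 in the control libraries and 0, 1 and 1 in the IS libraries. The 5p strands miR-29a-5p and miR-29b-1-5p had 5 and 6 counts in all, and miR-29b-2-5p had no row.

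Among the miR-30 5p strands, miR-30d-5p was the most abundant and had the widest range, its highest value being 4.99 times its lowest. It had 3052, 8936 and 2604 CPM in the control libraries and 2922, 1790 and 6379 CPM in the IS libraries. One library of each group stood out, control 2 and IS 3, and the remaining 4 lay between 1790 and 3052 CPM. The control mean was 4864 ± 3534 CPM and the IS mean 3697 ± 2390 CPM (SD, n = 3 per group). The smallest count was 436, with a counting error of 4.79%, beside a spread within groups of 72.6 and 64.7%.

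The 2 paralogues that differ by C13U, miR-30e-5p and miR-30a-5p, were closer to each other. miR-30e-5p had 2145, 2402 and 2877 CPM in the control libraries and 1709, 3640 and 1678 CPM in the IS libraries. miR-30a-5p had 1524, 2113 and 3571 CPM in the control libraries and 1582, 2612 and 1344 CPM in the IS libraries. Their ratio (e over a) stayed between 0.806 in control 3 and 1.41 in control 1, and both had their lowest value in IS 3, one of the libraries highest in miR-30d-5p.

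miR-30c-5p, which comes from the neighbours of both Mir30a and Mir30e, had 884, 621 and 875 CPM in the control libraries and 603, 1078 and 557 CPM in the IS libraries. Of the 9 members other than the sparse miR-29c-3p it had the narrowest range, its highest value being 1.94 times its lowest. Its ratio to miR-30e-5p lay between 0.258 and 0.412. miR-30b-5p, which shares its locus with miR-30d, had 74.0, 85.0 and 292 CPM in the control libraries and 73.7, 236 and 79.5 CPM in the IS libraries. Control 3 and IS 2 thus stood above the other 4, which lay between 73.7 and 85.0 CPM, and these 2 libraries were the lowest in miR-30d-5p. For miR-30e-5p, miR-30a-5p, miR-30c-5p and miR-30b-5p alike the groups overlapped.

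The shares within the miR-30 5p counts show this shift. The share of miR-30d-5p was 39.7, 63.1 and 25.5% in the control libraries and 42.4, 19.1 and 63.6% in the IS libraries. Where it was low, in control 3 and IS 2, the shares of miR-30a-5p (34.9 and 27.9%) and miR-30b-5p (2.85 and 2.53%) were at their highest. Counts of miR-30d-5p per count of miR-30b-5p were 41.2, 105 and 8.93 in the control libraries and 39.6, 7.57 and 80.2 in the IS libraries, a range of 13.9 times between 2 strands of 1 locus. For miR-30d-5p over miR-30a-5p the range was 6.93 times, and for miR-30e-5p over miR-30a-5p it was 1.75 times. The group means of the miR-30d-5p share, 42.8 ± 19.0% in control and 41.7 ± 22.2% in IS, differed by less than the spread within either group.

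**Figure D2:**
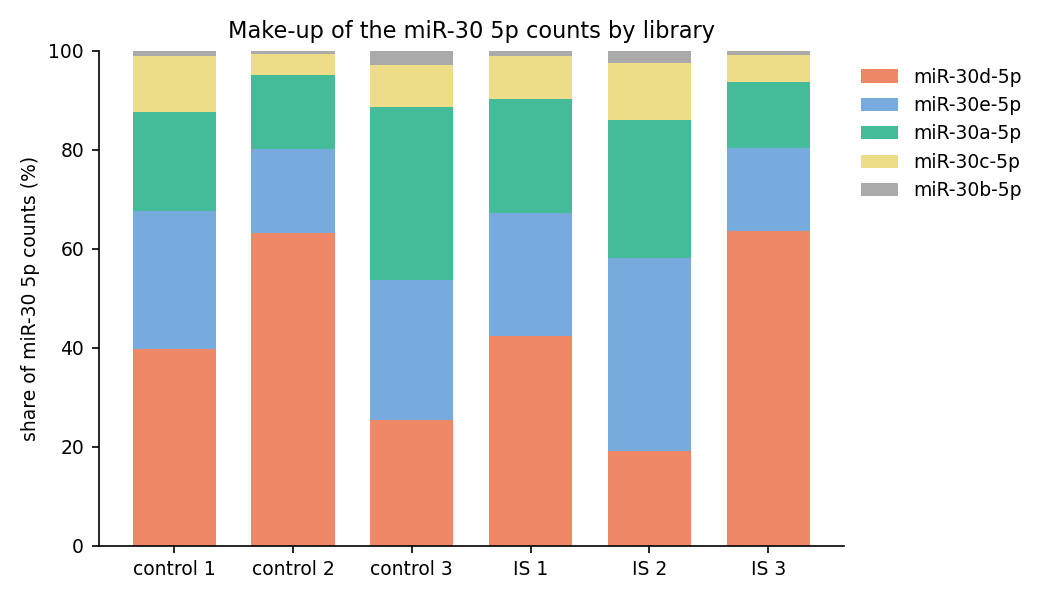
Share of each 5p strand in the summed miR-30 5p counts (%, stacked to 100) of the 6 libraries. miR-30d-5p takes 19.1 to 63.6%, lowest in control 3 and IS 2 and highest in control 2 and IS 3, so that the large differences lie within both groups.

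The likeness of patterns was measured as the root mean square difference of log2(CPM + 1) over the 6 libraries after each miRNA was centred on its mean. Of the pairs of tested members, miR-30c-5p and miR-30e-5p were the closest (0.21), followed by miR-30a-5p with miR-30e-5p (0.27). The pair of 1 locus, miR-30b-5p and miR-30d-5p, lay at 1.45. miR-30b-5p was nearest to miR-30a-5p of its own family (0.42), followed by miR-29a-3p (0.45). Outside both families, the 3 tested miRNAs nearest to miR-29a-3p were miR-107-3p (0.33), miR-146a-5p (0.37) and miR-142a-3p (0.41), the last a miRNA of blood cells that is also in the myeloid marker list, with a median of 1.23 over all others. Nearest to miR-30d-5p were let-7a-5p (0.27), miR-146b-5p (0.28) and miR-26a-5p (0.33), with a median of 1.11. These distances are descriptions over 6 libraries that share their totals.

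Some of the marker sums moved with these patterns and others did not. The summed myeloid markers (3, all detected) were highest where miR-29a-3p and miR-30b-5p were, with 20929 CPM for control 3 and 25034 for IS 2. They had 10406 and 5484 CPM in control 1 and 2, and 11126 and 6888 CPM in IS 1 and 3. That sum was nearly all miR-142a, a miRNA of blood cells whose 3p strand was the minor arm (3.89% of both arms). It thus stands for 1 hairpin and does not single out myeloid cells. The summed red cell markers were also highest in control 3 and IS 2 (186872 and 223132 CPM, against 93435 to 148261 CPM). The summed platelet and endothelial markers (2, both detected) were highest where miR-30d-5p was, with 24461 CPM for control 2 and 26477 for IS 3. They were lowest in control 3 (9055 CPM) and IS 2 (4834 CPM). That sum was nearly all 1 strand of miR-126a, the other strand holding 0.619% of the counts of both arms. The share of that minor strand was lowest in control 2 and highest in control 3, the other way from the sum. In control 1 and IS 1, where miR-29a-3p and miR-29b-3p were lowest, the summed liver markers were highest (113012 and 107525 CPM, against 24325 to 46600 CPM in the other 4 libraries). That sum was nearly all miR-122-5p. The other marker of the list, miR-192-5p, was lowest in control 1 and IS 1 (466 and 503 CPM, against 577 to 978 CPM). The summed lymphocyte markers were lowest in these 2 libraries (966 and 717 CPM, against 1828 to 2680 CPM). The fibroblast and smooth muscle sum followed neither pattern, being highest in control 3 (12217 CPM) and lowest in IS 2 (7245 CPM). Nor did that of heart and skeletal muscle, lowest in control 1 (363 CPM) and highest in IS 1 (4799 CPM). Control 3 and IS 2 were also the 2 deepest libraries. The part of these cells, or of depth, in the members' levels was not tested.

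The comparison of IS with control asked which vesicle miRNAs differ after the stimulation, and no member passed its threshold. Of the 10 members, 9 passed the filter on low counts, miR-29c-3p being the one left out. Of these 9, 0 were called by the edgeR quasi-likelihood test at an adjusted p under 0.05, where 0.0% of the 206 tested miRNAs were called, and 0 had an unadjusted p under 0.05, where 3 of the 206 did. The groups did not overlap in CPM for 0 of the 9 members, beside 1.46% of all tested miRNAs. DESeq2 and limma also called 0 of the 618 and 206 miRNAs they tested. At an unadjusted p under 0.05 there were 14 and 2, none of them one of the 9 members. The median log2 fold change of the members was -0.06, and that of all tested miRNAs was 0.02.

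Of the 9, 6 had a log2 fold change below 0 and 3 above 0. The 5 miR-30 5p strands were all on the lower side: -0.43 (SE 0.59) for miR-30d-5p, -0.28 (SE 0.51) for miR-30a-5p, -0.08 (SE 0.83) for miR-30b-5p, -0.06 (SE 0.54) for miR-30c-5p and -0.02 (SE 0.51) for miR-30e-5p. The signs of the last 3 turned with RLE scaling (0.01, 0.03 and 0.06). For miR-29a-3p the value was 0.10 (SE 0.70), which turned to -0.0006 with library totals alone, and for miR-29b-3p it was -0.27 (SE 1.27). The 3p strands miR-30a-3p and miR-30e-3p had 0.47 (SE 0.74) and 0.15 (SE 0.77). Every adjusted p was 0.996, and the unadjusted ones ran from 0.487 to 0.973 (edgeR quasi-likelihood test).

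These intervals leave room for sizeable changes in either direction. The 95% confidence interval of the fold was 0.299 to 1.85 for miR-30d-5p and 0.456 to 2.14 for miR-30e-5p, and that of miR-29a-3p was 0.364 to 3.13. That of the sparse miR-29b-3p was 0.118 to 5.78. With 1 library left out, the log2 fold change of miR-30d-5p was -0.02 without control 2 and -1.27 without IS 3, the 2 libraries in which it was highest. That of miR-29a-3p was 0.72 without control 3 and -0.92 without IS 2, again the 2 highest.

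**Figure D3:**
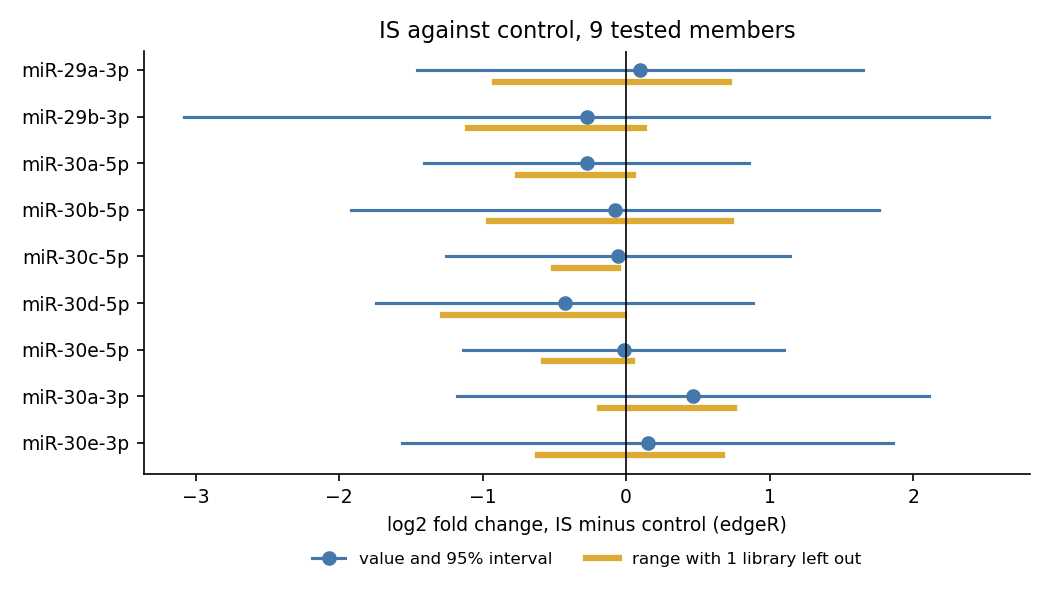
Log2 fold change (IS minus control, edgeR) of the 9 tested members, with points and thin lines for the value and its 95% confidence interval and thick lines for the range with 1 library left out. Every interval includes 0, and the widest is that of miR-29b-3p, from -3.08 to 2.53.

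Strand choice was examined in miR-30a and miR-30e, whose 3p strands were both members. Their hairpins are shown because the arms compared are cut from them, with the 5p strand and then the 3p strand in capitals (RefSeq, GRCm38.p6, chr1:23272269-23272339 on the plus strand and chr4:120772606-120772697 on the minus strand).

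Mir30a: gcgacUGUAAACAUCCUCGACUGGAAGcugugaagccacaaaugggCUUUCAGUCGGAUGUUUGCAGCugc

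Mir30e: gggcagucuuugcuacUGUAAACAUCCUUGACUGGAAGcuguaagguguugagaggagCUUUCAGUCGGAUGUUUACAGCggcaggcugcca

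The 5p strand was the major one in every library. Counts of the 3p strand of miR-30a were 16, 35 and 63 in the control libraries and 27, 24 and 27 in the IS libraries, or 59.2, 149 and 145 CPM and 181, 75.6 and 215 CPM. Counts of 5p per count of 3p were 25.8, 14.2 and 24.7 in the control libraries and 8.74, 34.5 and 6.26 in the IS libraries. IS 2 had the highest ratio of the 6 libraries and IS 1 and IS 3 the lowest, so the IS group enclosed the control group.

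For miR-30e the 3p strand had 12, 68 and 53 counts in the control libraries and 22, 36 and 28 in the IS libraries, or 44.4, 289 and 122 CPM and 147, 113 and 223 CPM. Counts of 5p per count of 3p were 48.3, 8.31 and 23.6 in the control libraries and 11.6, 32.1 and 7.54 in the IS libraries. Here control 1 was the highest and IS 3 the lowest.

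As a share of both arms, the 3p strand of miR-30a took 3.74, 6.58 and 3.89% in control and 10.3, 2.81 and 13.8% in IS. For miR-30e the shares were 2.03, 10.7 and 4.06% and 7.94, 3.02 and 11.7%. Libraries of 1 group differed beyond counting error: for miR-30e the exact (Clopper-Pearson) 95% interval was 1.05 to 3.51% in control 1 and 8.44 to 13.4% in control 2, and for miR-30a it was 1.81 to 4.16% in IS 2 and 9.28 to 19.4% in IS 3. Reads without molecular identifiers are not independent molecules, so these intervals, the counting errors above and the limits for counts of 0 cover counting error only.

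**Figure D4:**
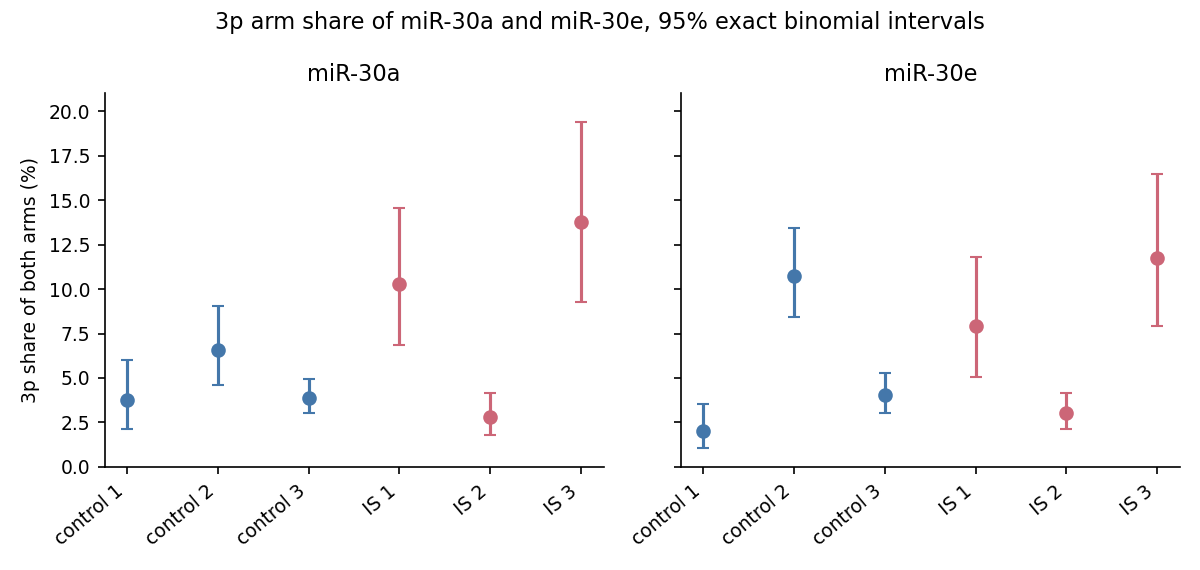
Share of the 3p strand in the counts of both arms (%) of miR-30a and miR-30e, with 95% exact binomial intervals, in control (blue) and IS (red) libraries. The shares run from 2.03 to 13.8%, and in both hairpins IS 3 is the highest and IS 2 lies below IS 1.

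The difference of the mean log2 ratio of the arms (0.5 counts added to each, IS minus control) was -0.75 for miR-30a, from 4.36 ± 0.47 in control to 3.60 ± 1.30 in IS, with an exact two-sided permutation p of 0.4. For miR-30e it was -0.58, from 4.38 ± 1.26 to 3.79 ± 1.08 (SD, n = 3 per group, exact permutation p = 0.6). Adjusted over these 2 ratios, both were 0.6, and 3 libraries against 3 cannot give a two-sided p under 0.1. The difference of miR-30a was -0.26 without IS 3 and -1.49 without IS 2, and that of miR-30e was -0.004 without control 1 and -1.25 without control 2.

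The arm shares also followed depth. In order of falling library total (control 3, IS 2, control 1, control 2, IS 1, IS 3), the 3p share of miR-30a was 3.89, 2.81, 3.74, 6.58, 10.3 and 13.8%, so that the 3 deepest libraries were all lower than the 3 shallowest. The same held for miR-30e, with 4.06, 3.02 and 2.03% against 10.7, 7.94 and 11.7%. The part of depth in the arm shares was not tested. In the other 28 hairpins with both arms tested, the log2 ratio of the major to the minor arm differed by a median of 0.002 between IS and control, with 13 below 0, 14 above and 1 at 0, and it ranged over a median of 2.74 across the 6 libraries, beside 2.46 for miR-30a and 2.65 for miR-30e. That median lies between the differences of miR-299b (0) and miR-486a (0.005), both named after their values were seen. The arms of miR-299b had equal counts in every library. Those of miR-486a were nearly equal, with a minor share of 49.8% and a range of 0.055 in the log2 ratio. The ratios of these hairpins thus hardly varied in any library, and the reason was not tested. The minor share was highest in IS 3 in 10 of the 28.

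The 3p strand of miR-30e has an annotated partner on the opposite strand, miR-30f, which was singled out after its values were seen. Mir30f has the same coordinates as Mir30e on the plus strand, and its mature strand overlaps miR-30e-3p by 19 bases.

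miR-30f: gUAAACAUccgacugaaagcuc

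Its seed (capitals) is not that of the miR-30 5p strands. miR-30f had 8, 41 and 36 counts in the control libraries and 20, 22 and 14 counts in the IS libraries, below miR-30e-3p in 6 of 6 libraries, at 1.1 to 2.0 counts of miR-30e-3p per count of miR-30f. Whether the counting used strand is not given in the sources used here, so reads of these 2 rows may not be told apart. Of the other minor strands, miR-30b-3p had 33 counts in all, 31 of them in control 3 and IS 2, miR-30d-3p had 24, miR-30c-2-3p 14 and miR-30c-1-3p 10.

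A list of other miRNAs that textbooks and reviews tie to fibrosis held none past the threshold either. Of 14 miRNAs held to reduce fibrosis, 12 were tested and 0 were called, with 6 above and 6 below 0 and a median log2 fold change of 0.02 beside 0.02 for all tested miRNAs. The muscle miRNA miR-1a-3p, named here after its values were seen, was the 1 of both lists with an unadjusted p under 0.05 (log2 fold change 1.68, SE 0.62, unadjusted p = 0.02, edgeR quasi-likelihood test). The most abundant were miR-26a-5p (control mean 47018 ± 24005 CPM, IS mean 39612 ± 17021 CPM, SD, n = 3 per group), with a log2 fold change of -0.28 (SE 0.55), the muscle and metabolic miRNA miR-378a-3p (-0.06, SE 0.58, and 0.03 with RLE scaling) and miR-26b-5p (0.09, SE 0.51). Of 12 held to promote fibrosis, 5 were tested and 0 were called, with 4 above and 1 below 0 and a median of 0.13. Among these miR-21a-5p, which is raised in fibrotic heart and kidney, had -0.57 (SE 0.50), miR-192-5p, which is also in the liver list, had 0.04 (SE 0.49), and miR-199a-5p, also in the fibroblast list, had 0.13 (SE 0.59). With 1 library left out, the log2 fold change of miR-21a-5p ran from -0.31 without IS 2 to -1.34 without IS 3, and that of miR-26a-5p from -0.09 without IS 2 to -0.87 without IS 3. Every adjusted p in the 2 lists was 0.996 (edgeR quasi-likelihood test).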

How the data were processed

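The authors deposited 1 table with a read count and a TPM value per miRNA and library, per the file headers. The deposited TPM equals counts per 1000000 of the library total (largest difference 4.8e-10), has no length term, and is called CPM here. Per the labels' protocols, vesicle RNA was isolated with the exoRNeasy Maxi kit and sequenced from NEBNext small RNA libraries. The submitters' processing notes list Bowtie and CASAVA 1.8 with no role. The sources used here do not give genome build, mismatches allowed, filters or strand.

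The main test was edgeR's quasi-likelihood F test on the counts of all 6 libraries with TMM factors, filterByExpr (at least 10 counts, 15 in total), no covariate and Benjamini-Hochberg adjustment over the 206 miRNAs kept, which held 99.7% of the counts. The biological coefficient of variation was 68.1%. The SE is the log2 fold change over the square root of F. Arm ratios were compared with exact permutation tests. No p was adjusted over the members alone.

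Tried besides were DESeq2, limma on log2 of the deposited TPM plus 1 or 0.5, scaling by RLE or by totals only, omission of the filter, a minimum of 10 CPM in at least 3 libraries, a block on replicate number, omission of each library and, for arms and sums, other added counts, pooled counts, TMM-scaled totals and leaving out the most abundant member. Named were the members, the other arms of their hairpins, the 3 nearest patterns, and the 3 most abundant tested miRNAs of each fibrosis list. Named besides were some miRNAs of the marker lists and, where stated, miRNAs picked after their values were seen. The members, lists and marker sets were chosen with earlier results of these data known. The fit was also run on simulated counts, where recovery of set fold changes was checked only at a spread far below that of these data. The outcome is not given here. Software was edgeR 4.0.16, DESeq2 1.42.0 and limma 3.58.1 in R 4.3.3, and scipy 1.17.1, numpy 2.4.6, pandas 2.3.3 and matplotlib 3.10.9 in Python 3.11.15.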

Additional observations from a re-analysis of the deposited data

How the results depend on the processing

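The count of miRNAs past the threshold was 0 under all 14 alternatives. An unadjusted p under 0.05 was held by 14 of 618 in DESeq2 and 2 of 206 in limma at either pseudocount. With no filter in edgeR it was held by 13 of 620. Of the 126 refitted member values, 30 took the other sign, in 8 of the 9 tested members; miR-30d-5p kept its sign. The sign turned with RLE factors for miR-30b-5p (0.011), miR-30c-5p (0.025), miR-30e-5p (0.060) and miR-378a-3p (0.033), without a filter for miR-30c-5p (0.027), miR-30e-5p (0.067) and miR-378a-3p (0.026), and with DESeq2 for miR-30b-5p (0.014), miR-30c-5p (0.042), miR-30e-5p (0.073) and miR-378a-3p (0.041). For miR-29a-3p it turned with library totals alone (-0.00057), limma (-0.114 at both pseudocounts) and the replicate block (-0.11), and for miR-29b-3p with limma (0.98 and 1.29) and the replicate block (0.29). The cause was not tested. With 1 library left out and the filter and scaling refitted, values ran from -0.92 to 0.72 for miR-29a-3p, -1.10 to 0.12 for miR-29b-3p, -0.75 to 0.046 for miR-30a-5p, -0.96 to 0.73 for miR-30b-5p, -0.57 to 0.043 for miR-30e-5p, -0.18 to 0.75 for miR-30a-3p, -0.62 to 0.67 for miR-30e-3p, -0.78 to 0.46 for miR-378a-3p, -0.43 to 0.21 for miR-26b-5p, -0.46 to 0.071 for miR-192-5p and -0.43 to 0.36 for miR-199a-5p. The arm difference of miR-30a kept its sign (-1.49 to -0.26 with a library left out). That of miR-30e ran from -1.25 to -0.0040 and was 0.064 with counts pooled per group, a sum that gives deep libraries more weight. The log2 difference of the summed levels was -0.26 for miR-30 (-0.48 to -0.034 with a library left out) and -0.11 for miR-29 (-0.72 to 0.56). Leaving miR-29a-3p out of the miR-29 sum gave no value, since control 1 was then at 0.

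Of the same-numbered libraries, only those numbered 1 deviated together (correlation of deviations 0.31, against -0.33 and -0.05 for numbers 2 and 3). The value was higher, 0.53, between control 3 and IS 2, so the numbers were not taken as pairs. In the fit with the replicate block 0 miRNAs passed, and the blocked arm differences were -0.75 (exact sign-flip p = 0.5) and -0.58 (p = 0.75), where the smallest p is 0.25. The smallest counts behind the values limit miR-29c-3p (0 in 5 libraries), miR-29b-3p (0 in control 1), miR-30b-5p (10), miR-30e-3p (12) and miR-30a-3p (16) most.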

Other observations

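Over the tested miRNAs, deviations of log2(CPM + 1) from the group mean correlated between -0.38 and 0.53 over the 9 pairs of a control and an IS library, a description over miRNAs that are not independent. The value was highest between control 3 and IS 2, the 2 libraries with the highest miR-29a-3p (1513 and 1613 CPM) and the lowest miR-30d-5p share of miR-30 5p counts (25.5 and 19.1%). It was 0.31 between control 1 and IS 1, which had the lowest miR-29a-3p (351 and 268 CPM), and 0.25 between control 2 and IS 3, which had the highest miR-30d-5p shares (63.1 and 63.6%). Control 3 and IS 2 were also the deepest libraries (435468 and 317323 counts). They had the most miRNAs with a count (513 and 441, against 276 to 301 in the others). No batch or date is labelled, and the part of depth or of anything else these libraries share was not tested.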
